A study of Mus musculus with 15 samples.

Results

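The genes described here encode laminin chains, integrin subunits and the adhesive proteins of the extracellular matrix that connect them. They were chosen by symbol and not by any measured value. The set took every laminin alpha, beta or gamma chain gene and every integrin alpha or beta subunit gene of the mouse annotation, together with Nid1, Nid2, Hspg2, Agrn, Fn1, Vtn, Tnc and Dag1. This gave 45 of the 25292 genes in the count table, namely 11 laminin chains, 18 integrin alpha subunits, 8 integrin beta subunits and 8 other adhesive matrix proteins. All 45 had a row in the table, and 44 had enough reads to be tested.

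RNA was sequenced from 15 libraries of C57/Bl6J mouse embryonic pancreas, with 3 libraries in each of 5 groups. Fresh pancreata at 14.5 days post coitum (dpc) were either wild type (wt) or S1pr2 null, a germline allele in which a Neo cassette interrupts the first exon of the sphingosine-1-phosphate receptor gene S1pr2, so that every cell of the embryo carries it. The other groups were explants of wt dorsal pancreatic buds taken at 14.5 dpc and cultured on filters for 2 days in serum-free medium. They received solvent (control), 15 μM of the S1pr2 antagonist JTE013 (JTE), or 15 μM JTE013 with 50 ng/ml connective tissue growth factor (JTE with CTGF). Each library was a pool of up to 3 pancreata sharing a genotype, or 3 explants sharing a treatment, so differences between single embryos cannot be seen.

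Laminins are secreted as trimers of an alpha, a beta and a gamma chain and assemble into the sheet that underlies every epithelium. Nidogens (Nid1, Nid2) tie this sheet to the collagen IV network, and the proteoglycans perlecan (Hspg2) and agrin (Agrn) fill and cross-link it. Cells hold on to the sheet through dystroglycan (Dag1) and through integrins, each a pair of an alpha and a beta subunit that spans the membrane and connects to actin or, in hemidesmosomes, to keratin. In the embryonic pancreas such basement membranes separate the branching epithelium from the mesenchyme and wrap the vessels. Other integrins bind fibronectin (Fn1), vitronectin (Vtn) and tenascin-C (Tnc) of the stroma, and a further group is carried by leukocytes and platelets.

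The libraries held 11402804 to 13828737 reads assigned to genes, and the biological coefficient of variation was 7.3%. S1pr2 itself went against the genotype label as a transcript count, with CPM (the reads of a gene scaled to a common effective library size) of 61.6, 60.8 and 60.7 in the wt libraries and 116, 101 and 108 in the libraries labelled S1pr2 null. The log2 fold change was 0.83 ± 0.07 (SE, edgeR quasi-likelihood F-test, adjusted p = 4.5e-07), and a count over the whole gene does not test whether a functional transcript was made. The library JTE 3 stood apart, with a chi-square per gene of 16.1 and 21.6 against JTE 1 and JTE 2, where other pairs within a group gave 2.28 to 9.7. Its summed CPM of 10 epithelial markers was 2485 against 3012 and 3139, and that of 10 mesenchymal markers was 13990 against 11410 and 12220. Calls of the JTE group that changed without it, and values that moved by over 1.5 times, are given beside the main values. These are bulk samples, in which fewer cells of a type and less RNA per cell cannot be told apart.

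In wt pancreas at 14.5 dpc the family was led by genes of the general basement membrane and its receptors. Levels between genes were compared as CPM per kilobase (kb) of exon. Itgb1, the beta subunit shared by most laminin, collagen and fibronectin receptors, was highest at 133.9 ± 8.63 CPM per kb (SD, n = 3). The next level was that of Vtn, at 71.2 ± 2.03. Agrn at 64.1 ± 1.67, Lamc1 at 63.4 ± 0.59, Nid2 at 60.3 ± 0.65 and Dag1 at 60.2 ± 4.58 followed. The ranges of Agrn and Lamc1 overlapped, as did those of Nid2 and Dag1, while Vtn lay above Agrn and Lamc1 above Nid2 in every library. Lamb1 came at 51.4 ± 0.98 and Nid1 at 44.98 ± 0.72, with no overlap between them. Of the alpha subunits Itga6, a laminin receptor of epithelia and endothelium, was highest at 33.9 ± 2.44, ahead of the fibronectin receptor subunit Itga5 at 20.8 ± 0.64.

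Among laminin alpha chains Lama5, the main alpha chain of mature epithelial and vascular basement membranes, had 16.6 ± 1.10 CPM per kb in wt pancreas. It was followed by the vessel chain Lama4 at 10.4 ± 0.45 and by Lama1, the chain of the earliest embryonic basement membranes, at 4.22 ± 0.57. Lama2, typical of muscle and nerve, stood at 0.86 ± 0.15 and Lama3, the alpha chain of hemidesmosomes, at 0.23 ± 0.01. Lamb1 and Lamc1, which join with most alpha chains, were thus higher per kb than the alpha chains, and Lamb2 stood at 19.2 ± 0.42. Lamc3 and Lamb3 had 0.94 ± 0.16 and 0.89 ± 0.17. The leukocyte subunits Itgb2, Itgal, Itgam and Itgb7 had 0.86 to 1.03, their order resting on overlapping ranges. Itgax stood at 0.04 ± 0.04 and rested on 4, 0 and 3 reads. Itgad, a further leukocyte subunit, had 0 reads in all 6 fresh libraries, where the limit of 3 reads lay at or above 0.201 CPM, and at most 3 reads in any explant library. It was not tested. Such limits of 3 reads cover counting error only.

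**Figure D1:**
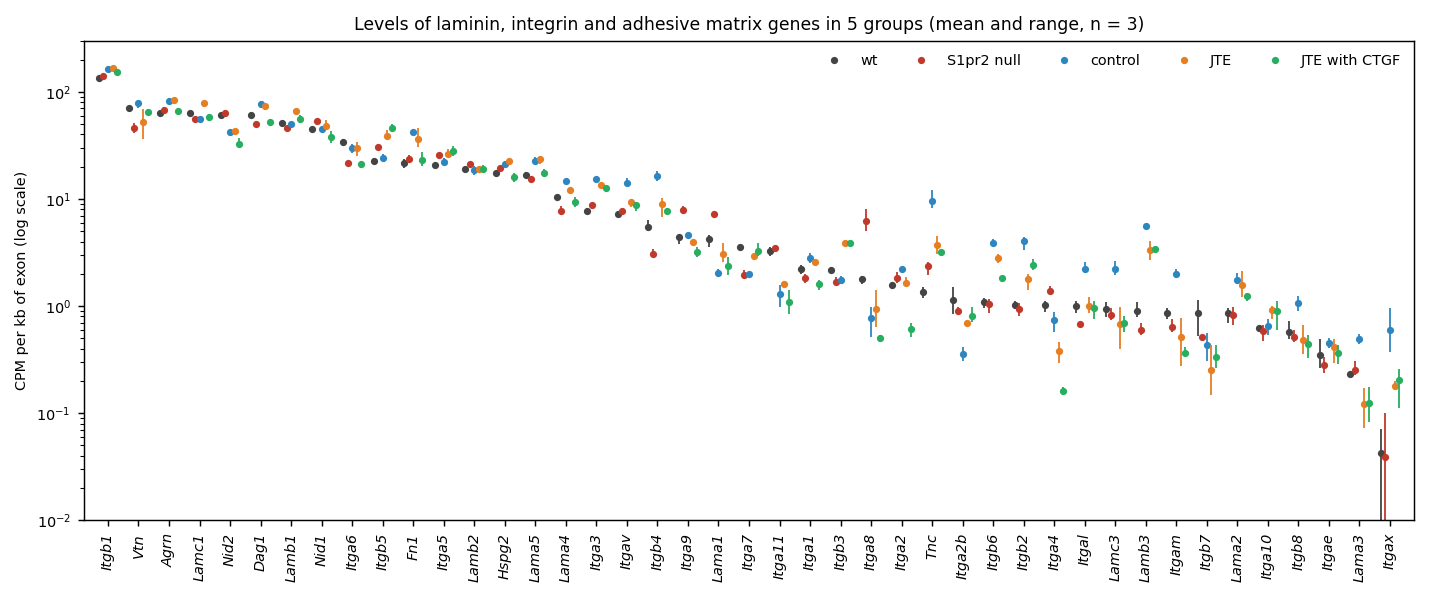
Levels of the genes as CPM per kb of exon (log axis), ordered by their mean in wt pancreas, with the mean (point) and range (line) of 3 libraries for each of 5 groups. Itgb1 lay highest in every group, Tnc and Lamb3 stood out above their wt level in control explants (blue), Itga8 in the libraries labelled S1pr2 null (red), and lines of Itgax that reach the axis include libraries with 0 reads.

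Control explants were compared with wt pancreata to describe where culture placed the family before any drug was added. Of the 44 genes tested, 23 rose and 10 fell in culture at an adjusted p below 0.05 (edgeR, adjusted over 16245 genes), beside 28.5% of all genes higher and 29.3% lower. The median log2 fold change was 0.31, against −0.023 for all genes tested. The study's criterion keeps protein-coding genes past a fold change of 1.6 up or 0.6 down, with over 100 normalised counts on average in at least 1 group and an adjusted p no higher than 0.1. It picked 17, beside 12.1% of all genes. Age, culture and the dissected part of the organ differ together in this comparison and cannot be told apart.

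The largest rise among well-measured genes was that of Tnc (ENSMUSG00000028364, mm10 chr4:63959785-64047015, minus strand), a stromal glycoprotein of growing and remodelling tissue. It had a CPM of 11.1, 9.16 and 11.6 in wt and of 66.4, 63.4 and 93.9 in control libraries, a 7.03-fold difference (log2 2.81 ± 0.16, adjusted p = 3.76e-10). Lamb3 (ENSMUSG00000026639, chr1:193301957-193343878, plus strand) encodes the beta chain of the hemidesmosomal laminin. Its CPM went from 3.52, 4.73 and 3.44 to 23.8, 25.6 and 24.5, a 6.32-fold rise (log2 2.66 ± 0.15, adjusted p = 2.12e-10). No library of one group reached the range of the other for either gene.

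Other subunits that anchor epithelium rose with Lamb3. Itgb6, the partner of Itgav on epithelial cells, rose from a CPM of 8.18, 6.80 and 8.45 to 26.2, 29.9 and 25.8 (log2 1.80 ± 0.12, adjusted p = 1.44e-09). Itgb4, the hemidesmosome subunit that pairs with Itga6, rose from a mean CPM of 38.5 ± 5.17 to 114 ± 12.9 (SD, n = 3; log2 1.57 ± 0.13, adjusted p = 2.43e-08). Lama3 (1.10), Lamc3 (1.24), Lama2 (1.03), Itga3 (0.98), Itgav (0.97), Fn1 (0.95) and Itgb8 (0.89) also rose on the log2 scale. The summed CPM of 10 epithelial markers was 2604 to 2865 in wt and 3745 to 4268 in control libraries, and its part in these changes was not tested. Smaller rises, of 0.27 to 0.52 on the log2 scale, were seen for Hspg2, Itgb1, Itga1, Agrn, Dag1, Lama5, Itga2 and Lama4, and that of Itga1 did not pass without wt 1 (0.27) or without control 3 (0.26).

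Of the subunits known from leukocytes Itgb2, Itgax, Itgal and Itgam rose, Itgb7 and Itga4 fell, and Itgae did not pass. Itgb2, the beta subunit common to leukocyte integrins, rose from a CPM of 2.87, 3.44 and 3.14 to 10.2, 13.5 and 13.1 (log2 1.96 ± 0.17, adjusted p = 4.51e-08). Itgax rose from 4, 0 and 3 reads to 18, 48 and 22 (log2 3.73 ± 0.62, adjusted p = 6.57e-05). Itgal and Itgam rose by 1.14 and 1.21 on the log2 scale. The summed CPM of 10 leukocyte markers was 200 to 218 in wt libraries and 420 to 482 in control libraries, and 8 of the 10 rose and 1 fell. Their part in these changes was not tested.

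Genes that went down in culture included subunits known from platelets, mesenchyme and muscle. Itga2b, the platelet and megakaryocyte subunit, fell from a CPM of 8.18, 5.88 and 4.64 to 2.29, 1.68 and 1.91 (log2 −1.67 ± 0.22, adjusted p = 5.09e-06). The summed CPM of 6 platelet markers went from between 12.4 and 14.1 to between 2.48 and 4.4. Itga11, a collagen receptor subunit of fibroblasts, fell from 17.4, 15.0 and 18.3 to 5.08, 8.01 and 6.81 (log2 −1.35 ± 0.16, adjusted p = 1.7e-06). Itga8, a receptor subunit of mesenchyme for nephronectin, fell from 13.3, 11.6 and 13.8 to 3.72, 7.13 and 6.06 (log2 −1.19 ± 0.26, adjusted p = 8.76e-04). For all of these subunits the groups did not overlap. The summed CPM of 10 mesenchymal markers was 11140 to 11300 in wt and 10640 to 11180 in control libraries, and 5 rose and 3 fell. The part of either marker list in these falls was not tested.

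Lama1 went from a CPM of 43.4, 33.8 and 43.2 to 17.9, 19.8 and 20.9 (log2 −1.04 ± 0.15, adjusted p = 1.76e-05). Itga7, the laminin receptor subunit of muscle, went from 13.3, 15.1 and 14.1 to 7.70, 8.41 and 7.64 (log2 −0.84 ± 0.12, adjusted p = 1.51e-05). Muscle markers did not fall with it as a group. The 5 smooth muscle markers summed to 159 to 179 in wt and 177 to 191 in control libraries, with 2 higher and 2 lower. The 6 skeletal muscle markers summed to 13.1 to 15.7 and 28.9 to 58.9, and of 5 tested 2 rose and 0 fell. Their part in the change of Itga7 was not tested. Nid2 fell by 0.52, Itga4 by 0.46, Itgb3 by 0.29 and Lamc1 by 0.17 on the log2 scale. Itgb7, the partner of Itgae and Itga4 on lymphocytes, fell by 1.0 although its groups overlapped. The calls of Itga4 (−0.31 without control 1), Itgb3 (−0.23 without control 1) and Itgb7 (−0.75 without wt 3) each rested on single libraries. Lamb1, Lamb2, Nid1, Vtn, Itga5, Itga6, Itga9, Itga10, Itgae and Itgb5 did not pass, with log2 fold changes from −0.18 to 0.36.

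**Figure D2:**
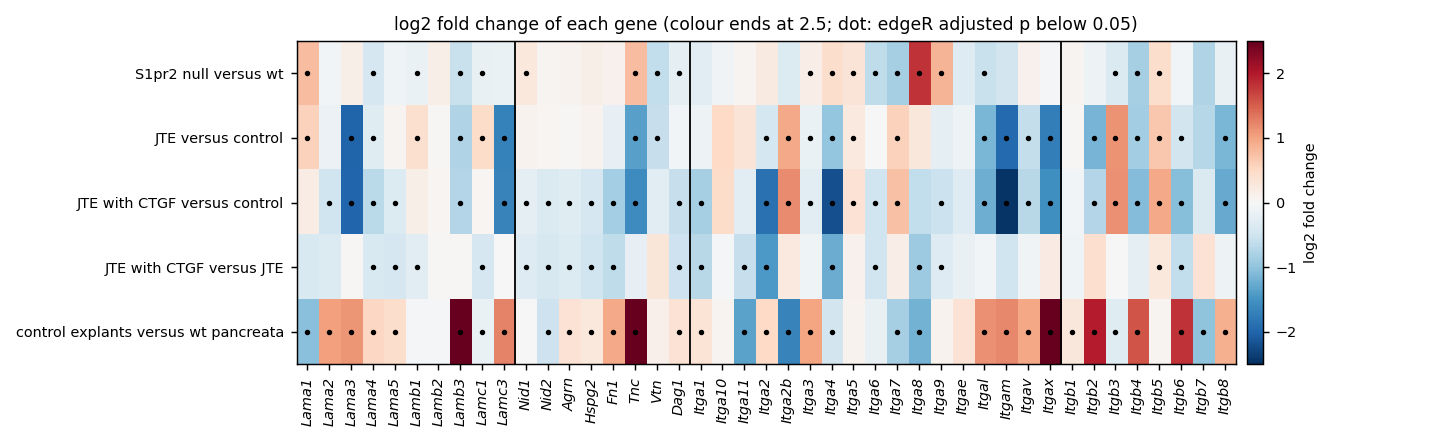
log2 fold change (colour, ending at 2.5) of the genes in 5 comparisons, with a dot where the edgeR adjusted p was below 0.05 and lines between laminins, other matrix proteins, alpha subunits and beta subunits. Lamb3, Tnc and Itgax were higher in control explants than in wt pancreata by more than the colour range. Lama3, Lamc3 and Tnc were lower and Itgb3 and Itgb5 higher with JTE, and Itga8 rose by 1.81 in the libraries labelled S1pr2 null.

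The libraries labelled S1pr2 null were compared with wt to ask how loss of the receptor in the embryo bears on the family. This comparison shares its wt libraries with the one above. In this comparison 9 of the 44 genes rose and 12 fell, beside 12.6% of all genes higher and 13.3% lower, and the median log2 fold change was −0.084 against −0.012 for all genes tested. The study's criterion picked 6 of them, beside 3% of all genes. Of the 11 laminin chains 5 fell and 1 rose. Alpha subunits moved both ways, with 5 higher and 3 lower of 17. No gene of the family that passed had overlapping groups, and how often this held over all genes that passed was not counted.

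Itga8 (ENSMUSG00000026768, chr2:12106632-12301920, minus strand) rose most, from a CPM of 13.3, 11.6 and 13.8 in wt to 40.7, 36.8 and 58.2 in the libraries labelled S1pr2 null, a 3.50-fold difference (log2 1.81 ± 0.21, adjusted p = 1.31e-05). Itga9, a subunit that binds tenascin-C among other ligands, rose from 35.9, 29.2 and 36.1 to 58.4, 57.6 and 65.9 (log2 0.85 ± 0.09, adjusted p = 3.49e-06). Tnc itself rose from 11.1, 9.16 and 11.6 to 19.4, 20.0 and 15.3 (log2 0.77 ± 0.18, adjusted p = 0.00448). These values lay apart between the groups, with the third null library highest for Itga8 and lowest for Tnc.

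Lama1 rose from a CPM of 43.4, 33.8 and 43.2 to 74.2, 67.0 and 64.4 (log2 0.77 ± 0.14, adjusted p = 5.35e-04). Itgb5, a partner of Itgav that binds vitronectin, rose from 81.2, 76.7 and 71.5 to 107, 102 and 102 (log2 0.44 ± 0.08, adjusted p = 0.00107). Itga5 (0.31), Nid1 (0.26), Itga4 (0.43) and Itga3 (0.17) also passed. The calls of Itga3 and Itga4 were lost with single wt or null libraries left out (0.16 for Itga3 without wt 3, 0.34 for Itga4 without wt 2), and that of Nid1 without wt 2 (0.25) among others.

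The genes that fell in the libraries labelled S1pr2 null included Itga7 and both subunits of the hemidesmosome integrin. Itga7 went from a CPM of 13.3, 15.1 and 14.1 to 7.51, 7.43 and 8.72 (log2 −0.84 ± 0.12, adjusted p = 8.29e-05). Itgb4 went from 35.5, 44.4 and 35.5 to 20.3, 23.7 and 20.8 (log2 −0.83 ± 0.14, adjusted p = 4.77e-04), and its partner Itga6 from 282, 326 and 310.1 to 192, 194 and 202 (log2 −0.64 ± 0.09, adjusted p = 1.09e-04). Both subunits of this laminin receptor thus stood lower in each of the 3 libraries.

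Vtn, a serum and stromal adhesion protein, went from a CPM of 142, 149 and 142 to 95.2, 103 and 83.4 (log2 −0.62 ± 0.15, adjusted p = 0.00484). Lamb3 went from 3.52, 4.73 and 3.44 to 2.503, 2.36 and 3.02 (log2 −0.56 ± 0.19, adjusted p = 0.0401), a call lost without wt 2 (−0.40) or without the first or second null library. Other calls lower were Itgal (−0.56), Lama4 (−0.41), Itgb3 (−0.37), Dag1 (−0.25), Lamc1 (−0.18) and Lamb1 (−0.17). That of Itgal was lost without any of 5 libraries (−0.47 without wt 2), that of Lamb1 without any 1 wt or null library (−0.16 without wt 3), that of Lamc1 without the second (−0.16) or the third null library, and those of Dag1 (−0.19) and Itgb3 (−0.31) without wt 2. The 10 epithelial markers, of which 9 fell, summed to 1919 to 2036 CPM in these libraries and 2604 to 2865 in wt. The 10 leukocyte markers, of which 1 rose and none fell, summed to 233 to 254 and 200 to 218. The part of either in the changes was not tested.

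Among genes that did not pass were Itgb1 at 0.06 (95% interval −0.05 to 0.18), Lama5 at −0.11 (−0.27 to 0.05), Fn1 at 0.11 (−0.17 to 0.38) and Hspg2 at 0.16 (0.03 to 0.29). These intervals bound what the comparison could have missed. Itga1, Itga2, Itga2b, Itga10, Itga11, Itgae, Itgam, Itgav, Itgax, Itgb2, Itgb6, Itgb7, Itgb8, Agrn, Lama2, Lama3, Lamb2, Lamc3 and Nid2 did not pass either, with log2 fold changes from −0.75 (Itgb7) to 0.22 (Itga2).

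**Figure D3:**
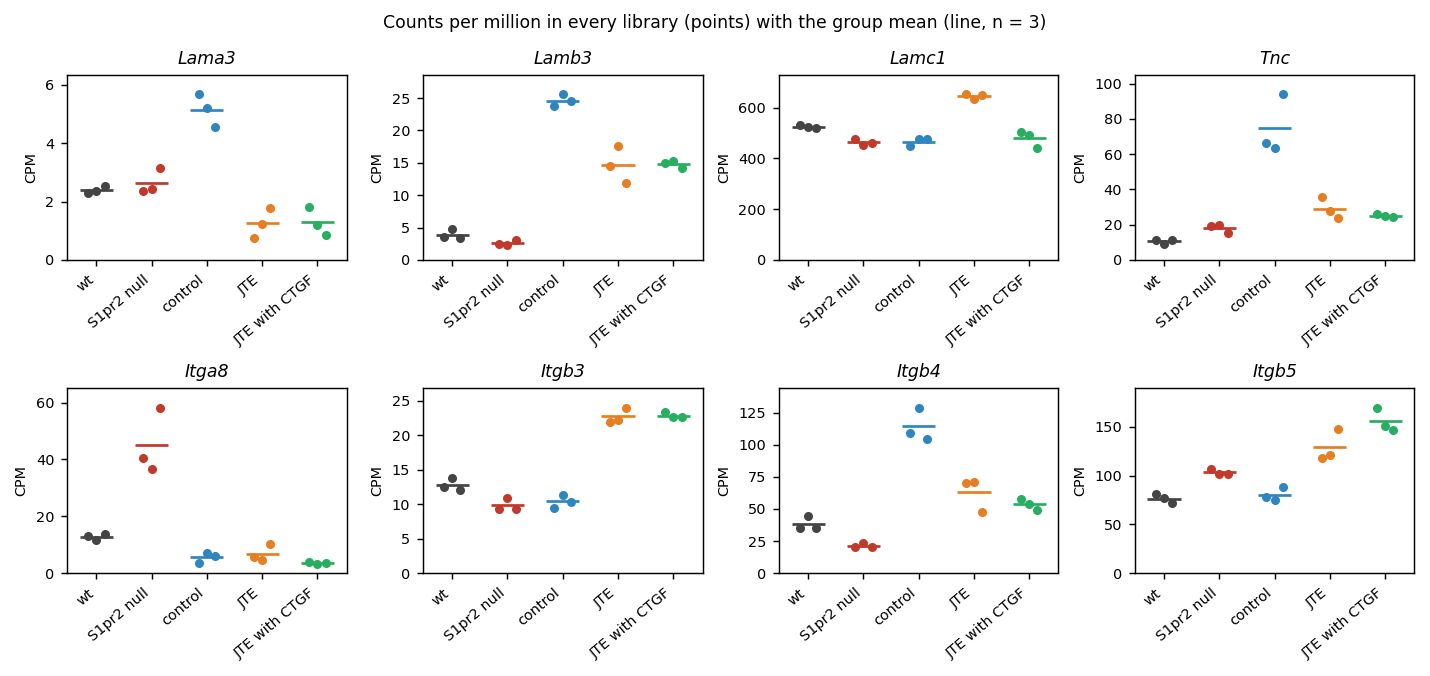
CPM of 8 genes in each of the 15 libraries (points) with the mean of each group (line, n = 3), on axes that start at 0. In Lama3, Lamb3, Tnc and Itgb4 all 3 control explants stood above all JTE explants, in Itgb3, Itgb5 and Lamc1 all 3 JTE explants stood above the controls, and Itga8 was high in the libraries labelled S1pr2 null.

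JTE explants were compared with control explants to ask what an acute block of the receptor changes, and the control libraries are those compared with wt above. Of the 44 genes 9 rose and 17 fell, beside 25.9% of all genes higher and 26.2% lower. The median log2 fold change was −0.123, against 0 for all genes tested. The study's criterion picked 11, beside 8.25% of all genes. Laminin chains split evenly, with 4 higher and 4 lower of 11. Of the 8 other matrix proteins none rose and 2 fell. Without JTE 3 the count lower was 21, beside 24.9% of all genes.

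Lama1, Lamb1 and Lamc1 moved in the opposite direction to Lama3, Lamb3 and Lamc3. Lamb1 and Lamc1, the pair shared by most basement membrane laminins, rose in each JTE library. Lamc1 (ENSMUSG00000026478, chr1:153218922-153332786, minus strand) had a CPM of 448, 476 and 475 in control and 652, 635 and 648 in JTE explants (log2 0.47 ± 0.05, adjusted p = 1.07e-06). Lamb1 had 462, 520.0 and 512 against 653, 635 and 684 (log2 0.40 ± 0.06, adjusted p = 3.06e-05). Lama1, an alpha chain that joins them, went from 17.9, 19.8 and 20.9 to 24.6, 25.4 and 37.1 (log2 0.58 ± 0.16, adjusted p = 0.00521), and its change was 0.36 without JTE 3, the highest of these libraries.

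By contrast Lama3 fell most of all laminin chains, from a CPM of 5.67, 5.21 and 4.57 to 0.76, 1.22 and 1.78 (log2 −2.01 ± 0.26, adjusted p = 6.42e-06). Lamb3 fell from 23.8, 25.6 and 24.5 to 14.5, 17.7 and 11.9 (log2 −0.75 ± 0.13, adjusted p = 1.03e-04). The 10 epithelial markers summed to 3745 to 4268 CPM in control and 2485 to 3139 in JTE explants, with 7 of them lower. The 10 mesenchymal markers summed to 10640 to 11180 and 11410 to 13990, although only 2 of them passed as higher and 4 passed as lower. The part of either list in the changes of these chains was not tested.

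Lamc3 fell from a CPM of 12.4, 11.9 and 16.1 to 4.13, 2.44 and 5.93 (log2 −1.68 ± 0.23, adjusted p = 9.74e-06). Lama4 fell by 0.295 on the log2 scale (adjusted p = 0.0041), and 7 of 10 endothelial markers fell beside it. Their summed CPM was 651 to 782 in control and 512 to 566 in JTE explants. These markers did not follow Lama4 in every comparison. In culture Lama4 rose while 4 markers rose and 5 fell. In the libraries labelled S1pr2 null Lama4 fell while 2 rose and 1 fell. From JTE to JTE with CTGF Lama4 fell while 4 rose and 1 fell. In JTE with CTGF against control Lama4 fell while 3 rose and 6 fell. Their part in the changes of Lama4 was not tested. Lama5, Lama2 and Lamb2 did not pass, at 0.07, −0.15 and 0.02, and Lama2 stood at −0.45 with an adjusted p of 0.0271 without JTE 3. Nid1, Nid2, Hspg2, Agrn and Dag1 did not pass and lay between −0.06 and 0.09, with intervals within −0.21 and 0.25.

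Of the stromal glycoproteins Tnc fell from a CPM of 66.4, 63.4 and 93.9 to 35.4, 27.8 and 24.0 (log2 −1.36 ± 0.15, adjusted p = 9.13e-07), which left it above all 3 wt libraries. Vtn went from 165, 168 and 143 to 107, 141 and 74.0 (log2 −0.57 ± 0.15, adjusted p = 0.00363), with JTE 3 lowest and a change of −0.36 without it. In the same comparison 4 of 5 smooth muscle markers fell, with summed CPM of 177 to 191 in control and 102 to 115 in JTE explants, and 4 of 5 mesothelial markers, with 52.4 to 77.2 and 27.2 to 48.2. Their part in the changes of these glycoproteins was not tested. Fn1 had 349, 352 and 347 in control and 255, 271 and 383 in JTE explants, and did not pass (−0.21, adjusted p = 0.193). JTE 3 lay above the controls for Fn1 and the other 2 JTE libraries below them, and without JTE 3 the change was −0.41 with an adjusted p of 0.00223.

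Of the beta subunits 2 rose and 4 fell, and partners of Itgav were found in both directions. Itgb3 (ENSMUSG00000020689, chr11:104608000-104670476, plus strand), a partner of Itgav and of Itga2b in vitronectin and fibrinogen receptors, rose from a CPM of 9.48, 11.4 and 10.4 to 21.9, 22.3 and 24.0 (log2 1.13 ± 0.09, adjusted p = 5.78e-08). Itgb5 rose from 78.2, 75.3 and 87.9 to 118, 121 and 148 (log2 0.68 ± 0.08, adjusted p = 3.96e-06). The other Itgav partners went down, Itgb6 by 0.45 on the log2 scale (adjusted p = 0.00189) and Itgb8, which activates latent TGF-beta, from 9.90, 12.02 and 13.7 to 3.96, 4.56 and 7.41 (log2 −1.15 ± 0.22, adjusted p = 3.5e-04). Itgav itself fell from 142, 145 and 169 to 89.7, 103 and 108 (log2 −0.60 ± 0.08, adjusted p = 8.75e-06). Itgb4 fell from a CPM of 110, 129 and 104 to 70.1, 71.0 and 47.6 (log2 −0.86 ± 0.13, adjusted p = 2.16e-05), whereas its partner Itga6 stood at 0.01 (interval −0.19 to 0.20).

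The alpha subunits that rose were Itga2b, Itga7 and Itga5. Itga2b had a CPM of 2.29, 1.68 and 1.91 in control and 3.71, 3.66 and 3.93 in JTE explants (log2 0.94 ± 0.23, adjusted p = 0.0026), while the 6 platelet markers summed to 2.48 to 4.4 and 0.98 to 3.19 in the same libraries, ranges that overlap. Of the 6 markers 3 could be tested and none passed, and their part in the rise was not tested. Itga7 had 7.70, 8.41 and 7.64 against 10.7, 12.3 and 12.3 (log2 0.57 ± 0.12, adjusted p = 8.89e-04). In the same comparison 4 of 5 smooth muscle markers fell and 0 rose, and their part in the change of Itga7 was not tested. Itga5 rose by 0.25, a call lost without control 1 (0.21), control 2 (0.23) or JTE 3 (0.18). The alpha subunits that fell and are not confined to leukocytes in textbook accounts were Itga4 (−0.96), which binds fibronectin and VCAM-1, the collagen receptor subunit Itga2 (−0.43) and Itga3 (−0.17). Itga1, Itga8, Itga9, Itga10, Itga11, Itgae, Itgb1 and Itgb7 did not pass, with 0.04 (interval −0.08 to 0.15) for Itgb1. Without JTE 3 Itga9 (−0.28), Itga10 (0.63) and Itgb7 (−1.36) did. Itga9 also passed as lower with DESeq2 size factors (−0.25), upper quartile factors (−0.26) and the DESeq2 Wald test (−0.25). It passed as well with only the libraries compared (−0.23), with offsets for exon length (−0.28) and without some other single libraries (−0.22 without wt 2). Its main result thus lay close to the threshold.

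The leukocyte subunits Itgam, Itgax, Itgal and Itgb2 fell in JTE explants, as did Itga4, while Itgae and Itgb7 did not pass. Itgam, the macrophage and granulocyte subunit, went from a CPM of 11.8, 14.3 and 12.5 to 1.77, 3.17 and 4.89 (log2 −1.95 ± 0.22, adjusted p = 1.96e-06). Itgax went from 1.52, 3.85 and 1.83 to 0.67, 0.81 and 0.67 (log2 −1.73 ± 0.48, adjusted p = 0.00585), a call lost without control 2 (−1.21). Itgal and Itgb2 fell by 1.15 and 1.16 on the log2 scale. All 10 leukocyte markers fell as well, from a summed CPM of 420 to 482 down to 173 to 223, where fresh wt pancreas had 200 to 218. Their part in the falls of these subunits was not tested.

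**Figure D4:**
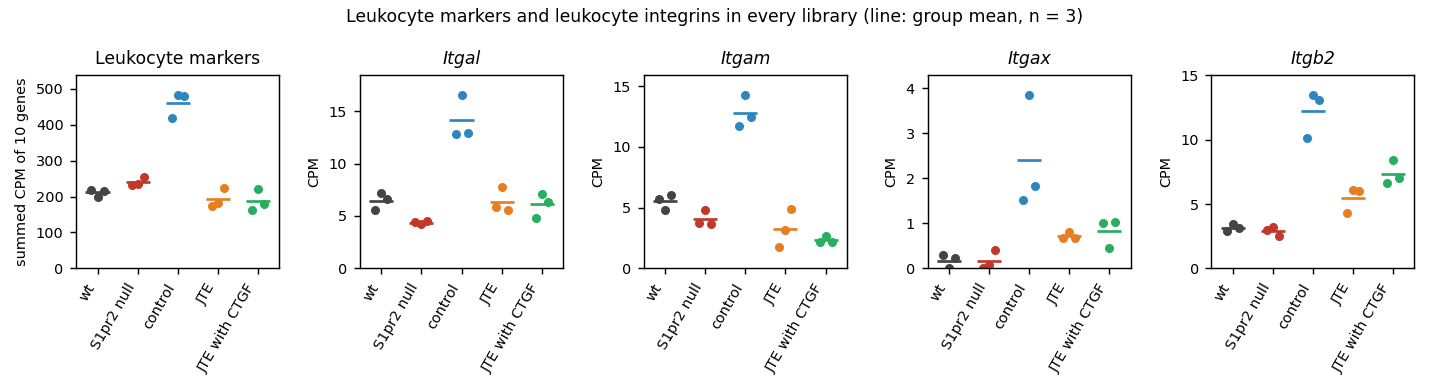
Summed CPM of 10 leukocyte markers (left) and CPM of the leukocyte subunits Itgal, Itgam, Itgax and Itgb2 in each library (points) with the group mean (line, n = 3), on axes that start at 0. In all 5 panels the 3 control explants lay above every fresh and every JTE-treated library, and the marker sum had the same order of control explants over treated explants as the subunits.

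Promoters are shown for the 2 genes that fell most and the 2 that rose most with JTE among those with a promoter in RefSeq and a mean CPM of at least 5 in both groups, so that windows of genes moving in opposite directions can be read side by side. Tnc and Itgb8 fell, and Itgb5 and Lamb1 rose. The sequences are those of RefSeq for GRCm38.p6 and run from 250 bases before to 50 bases after the annotated start, 5′ to 3′ on the strand of the gene. They lie at chr4:64046966-64047265 (Tnc, minus strand), chr12:119238227-119238526 (Itgb8, minus strand), chr16:33829415-33829714 (Itgb5, plus strand) and chr12:31265043-31265342 (Lamb1, plus strand). Capitals mark the letters of a GC box (GGGCGG or its reverse complement CCGCCC) or of a TATA box (TATAAA or its reverse complement TTTATA).
Tnc: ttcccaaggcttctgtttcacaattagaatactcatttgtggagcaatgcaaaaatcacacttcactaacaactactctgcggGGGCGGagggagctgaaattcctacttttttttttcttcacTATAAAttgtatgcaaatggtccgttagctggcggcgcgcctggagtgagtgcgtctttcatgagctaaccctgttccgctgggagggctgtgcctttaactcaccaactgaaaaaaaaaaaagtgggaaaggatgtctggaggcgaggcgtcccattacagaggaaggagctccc
Itgb8: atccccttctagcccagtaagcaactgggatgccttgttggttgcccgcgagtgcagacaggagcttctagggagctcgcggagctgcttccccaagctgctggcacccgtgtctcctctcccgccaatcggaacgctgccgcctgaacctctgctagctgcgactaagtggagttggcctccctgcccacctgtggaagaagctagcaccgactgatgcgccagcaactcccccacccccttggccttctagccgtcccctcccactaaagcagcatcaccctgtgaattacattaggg
Itgb5: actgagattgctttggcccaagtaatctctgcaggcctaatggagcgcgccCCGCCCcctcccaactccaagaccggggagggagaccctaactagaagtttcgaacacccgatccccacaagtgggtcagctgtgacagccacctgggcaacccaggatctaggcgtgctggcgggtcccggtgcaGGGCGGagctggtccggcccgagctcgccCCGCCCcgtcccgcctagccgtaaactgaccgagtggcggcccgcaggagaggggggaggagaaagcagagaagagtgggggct
Lamb1: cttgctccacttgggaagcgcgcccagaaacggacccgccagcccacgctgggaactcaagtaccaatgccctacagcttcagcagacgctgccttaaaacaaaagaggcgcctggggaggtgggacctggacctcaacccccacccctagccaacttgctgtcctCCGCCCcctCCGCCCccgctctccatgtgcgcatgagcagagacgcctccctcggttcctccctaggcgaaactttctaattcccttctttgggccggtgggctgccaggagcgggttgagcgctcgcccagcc

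Itgb5 held 3 GC boxes, Lamb1 held 2 and Tnc held 1 beside a TATA box, and Itgb8 held neither. A promoter was found for 29 of the 45 genes. A GC box lay in 16 of these 29 (55.2%) and in 35.7% of 32851 promoters of the same length, and a TATA box in 2 of 29 (Tnc and Vtn) and in 13.6%. The core letters bound by TEAD factors (GGAATG or CATTCC) lay in 4 of 29, namely Itga10, Itgb1, Nid1 and Vtn, and in 14.7% of all promoters. The AP-1 letters (TGAGTCA or TGACTCA) lay in the windows of Itga9 and Itgax and in 5.2% of all. Both strands were searched, motifs could overlap each other although none did in the 4 windows printed, and a match describes the window only.

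The responses to genotype and to JTE were set against each other in a test of their difference, using 12 libraries of which none is shared between the responses. The genotype response was measured in fresh pancreata with a germline allele, and the JTE response in dorsal buds cultured for 2 days. Age, culture, dissected part and the kind and duration of the loss thus differ together between the responses and cannot be told apart. Of the 44 genes 19 differed, 7 with the JTE response above the genotype response and 12 below it, beside 42.9% of all genes in either direction. The family thus stood near the background share. In 8 genes both responses passed the test with opposite signs. The share of all genes with this pattern was not counted, so this number has no background beside it. Tnc rose in the libraries labelled S1pr2 null (0.77) and fell with JTE (−1.36), a difference of −2.14 ± 0.23 (adjusted p = 2.22e-06). Itgb3 fell with genotype (−0.37) and rose with JTE (1.13), a difference of 1.5 ± 0.14 (adjusted p = 3.73e-07), and Itga7 did likewise (−0.84 and 0.57, difference 1.41 ± 0.17, adjusted p = 6.54e-06).

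The chains Lamb1 and Lamc1 were lower with genotype and higher with JTE, with differences of 0.57 and 0.65, and Itga4 and Itga3 showed the reverse, at −1.39 and −0.34. In other genes that differed, at most 1 of the responses passed its own test or both had the same sign. Lama3 (−2.16 ± 0.36), Itga8 (−1.52 ± 0.36), Lamc3 (−1.51 ± 0.33), Itgam (−1.5 ± 0.32) and Itga9 (−1.07 ± 0.13) were below and Itga2b (1.29 ± 0.30) and Itga6 (0.65 ± 0.13) above. Itgb4, which fell in both, differed by −0.03 (interval −0.44 to 0.37), and Itgb5 and Lama1, which rose in both, by 0.24 (−0.01 to 0.50) and −0.19 (−0.63 to 0.25). Itgb2 (−1.04), Itgb8 (−0.97), Itgav (−0.71) and Itga2 (−0.65) were the remaining genes below, and the call of Itgb8 was lost without any 1 of 6 libraries (−0.80 without JTE 1). Without JTE 3, Fn1 (−0.52), Nid1 (−0.27), Dag1 (0.25) and Lama5 (0.26) also passed.

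JTE with CTGF was compared with control and with JTE alone to ask whether CTGF changes the response to the block. These comparisons share the control libraries or the JTE libraries with the one above, so they are given side by side and not counted as separate evidence. Against control 5 of the 44 genes rose and 27 fell, beside 28.1% of all genes higher and 33% lower, with a median log2 fold change of −0.451 against −0.032 for all genes tested. The study's criterion picked 15 of them, beside 11.8% of all genes. Against JTE alone 1 rose and 19 fell, beside 13.6% and 16.8%, with a median of −0.242 against −0.002. The criterion picked 0 in that comparison, beside 1.74% of all genes.

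The largest falls from JTE to JTE with CTGF were those of Itga2, Itga4, Itga8 and Itga1, all alpha subunits. Itga2 (ENSMUSG00000015533, chr13:114835916-114932041, minus strand) had a CPM of 7.84, 6.67 and 6.45 in JTE and 2.19, 2.92 and 2.64 with CTGF (log2 −1.43 ± 0.16, adjusted p = 5.86e-06), where control explants had 9.06, 9.38 and 9.80. Itga4 had 6.41, 4.15 and 5.56 against 2.28, 2.10 and 2.46 (log2 −1.23 ± 0.22, adjusted p = 4.85e-04). Itga1, a collagen receptor subunit of mesenchyme and vessels, had 16.4, 14.7 and 15.3 against 10.4, 9.77 and 8.40 (log2 −0.70 ± 0.12, adjusted p = 3.02e-04). None of these groups overlapped, and against control explants the falls of Itga2 and Itga4 were −1.86 and −2.19.

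Fn1 had a CPM of 255, 271 and 383 in JTE and 230.4, 184 and 168 with CTGF (log2 −0.64 ± 0.13, adjusted p = 0.0014), and its change was −0.40 without JTE 3. Itga8 had 5.57, 4.64 and 10.3 against 3.92, 3.38 and 3.78 (log2 −0.90 ± 0.31, adjusted p = 0.0374), a call lost without JTE 3 (−0.43) or without any 1 CTGF library. Other matrix and anchoring genes fell by less. Itgb6 (−0.61), Itga11 (−0.58), Dag1 (−0.51), Hspg2 (−0.50), Itga6 (−0.50), Lamc1 (−0.43), Lama5 (−0.42), Nid2 (−0.41), Lama4 (−0.37), Agrn (−0.33), Nid1 (−0.33), Itga9 (−0.32) and Lamb1 (−0.26) passed, and Nid1 moved to −0.19 without JTE 3. The call of Itga11 was lost without JTE 2 or without the second (−0.43) or the third CTGF library, and that of Itga9 without JTE 3 (−0.24) or without the first or the third CTGF library. Itgb5 rose by 0.27 ± 0.08 (adjusted p = 0.019) with overlapping groups, at 0.42 without JTE 3 and not passing without JTE 1, JTE 2 or the first CTGF library (0.20). Without JTE 3, Itgb4 (−0.36), Itgb2 (0.53) and Itga5 (0.22) also passed.

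Some of the genes that had changed with JTE did not pass from JTE to JTE with CTGF. Itga2, Itga4, Itgb5, Itgb6, Lama4, Lamb1 and Lamc1 did pass. Lamb1 and Lamc1, which had risen with JTE, fell with CTGF. The mean CPM of Lamc1 was 466 in control, 645 in JTE and 480 with CTGF, and that of Lamb1 was 498, 658 and 549. Of the 11 laminin chains 0 rose in JTE with CTGF against control in the main fit, beside 28.1% of all genes. This count moved with the setting. Lamb1 passed as higher with no filter on low counts (0.18) and without control 2 (0.17), JTE 3 (0.18) or the third CTGF library (0.195). With a trend on exon length removed, as described below, Lama1 (0.41), Lamb1 (0.37) and Lamc1 (0.22) passed as higher. Under that step the change from JTE to JTE with CTGF was 0.04 for Lamb1 and −0.19 for Lamc1. From JTE to JTE with CTGF Itgb3 changed by 0.01 (interval −0.18 to 0.19), Lamb3 by 0.02 (−0.26 to 0.30), Lamc3 by 0.00 (−0.54 to 0.55), Lama3 by 0.02 (−0.66 to 0.71) and Tnc by −0.21 (−0.54 to 0.13), none of which passed. Their intervals differ in width, and that of Lama3 allows a change of 0.71 on the log2 scale.

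Against control explants the leading genes were largely those of JTE alone. Itga2b, with a CPM of 4.10, 5.39 and 3.87, Itgb3, with 23.3, 22.6 and 22.7, Itgb5, with 170, 151 and 147, Itga7, with 11.9, 15.5 and 12.4, and Itga5, with 138, 122 and 111, rose by 1.18, 1.13, 0.95, 0.74 and 0.36 on the log2 scale. Itgam, with 2.19, 2.65 and 2.17, Lama3, with 1.82, 1.19 and 0.85, and Lamc3, with 3.46, 4.93 and 4.25, fell by 2.45, 1.99 and 1.68. Each of these lay outside the range of the control libraries. Tnc (−1.57), Itgax (−1.53), Itgb8 (−1.27), Itgal (−1.21), Itgb4 (−1.09), Itgb6 (−1.06), Fn1 (−0.85), Itga1 (−0.82), Itgb2 (−0.74), Lamb3 (−0.73), Itgav (−0.70), Lama4 (−0.67) and Dag1 (−0.58) fell as well. The call of Itgax was lost without control 2 (−1.0) or the second CTGF library, and the remaining calls lower (Itga9, Lama2, Itga6, Hspg2, Nid2, Lama5, Agrn, Itga3 and Nid1) ran from −0.55 to −0.24. That of Lama2 was lost without control 3 (−0.37) or any 1 CTGF library, and that of Nid1 without the third CTGF library (−0.15). Without JTE 3, which enters this comparison only through the shared estimate of spread and the scaling, Lamb1 (0.18) and Vtn (−0.23) also passed.

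Exon length moved with the change from JTE to JTE with CTGF over the whole table, and the family is long. Spearman's rho between exon length and the log2 fold change was −0.409 over 16245 genes in this comparison, and −0.159, 0.172, 0.07 and 0.01 in JTE with CTGF versus control, S1pr2 null versus wt, JTE versus control and culture. It is given as a description, since all points share the same libraries. The median exon length was 6068.5 bases in the family and 3431 bases over all genes tested. Of genes over 10000 bases 65.9% were lower with CTGF and 0.82% higher, with a median log2 fold change of −0.403, and the 7 family genes of that length had a median of −0.372 with 4 lower. Of genes of 4000 to 6000 bases 18% were lower with a median of −0.063, and the 17 family genes of that length had a median of −0.112 with 6 lower.

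With a smooth trend on exon length removed from each library, a step chosen after seeing the data, 10 genes of the family fell from JTE to JTE with CTGF in place of 19, and 2 rose. Itga2 (−1.39), Itga4 (−0.81), Itga1 (−0.57), Itga11 (−0.51), Dag1 (−0.46), Itgb6 (−0.42), Fn1 (−0.40), Nid2 (−0.34) and Lamc1 (−0.19) were among those that still passed. Agrn (−0.11), Hspg2 (−0.07), Itga6 (−0.23), Itga8 (−0.71), Itga9 (−0.11), Lama5 (−0.07) and Nid1 (−0.20) no longer did, Lama4 and Lamb1 moved to 0.00 and 0.04, and Itgav, which had not passed at −0.10, stood at 0.24 (adjusted p = 0.0169). The share of all genes lower went from 16.8% to 10.3% under the same step, and the share higher from 13.6% to 12%. Against control the same step ended the calls of Hspg2 (−0.05), Lama5 (−0.07), Lama2 (−0.27) and Nid1 (−0.15), and Lama1 (0.41), Lamb1 (0.37), Lamc1 (0.22) and Vtn (−0.36) passed. In S1pr2 null versus wt it ended the calls of Itga4 (0.29) and Itga3 (0.14), and Itga1 (−0.32) and Lama5 (−0.23) passed.

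**Figure D5:**
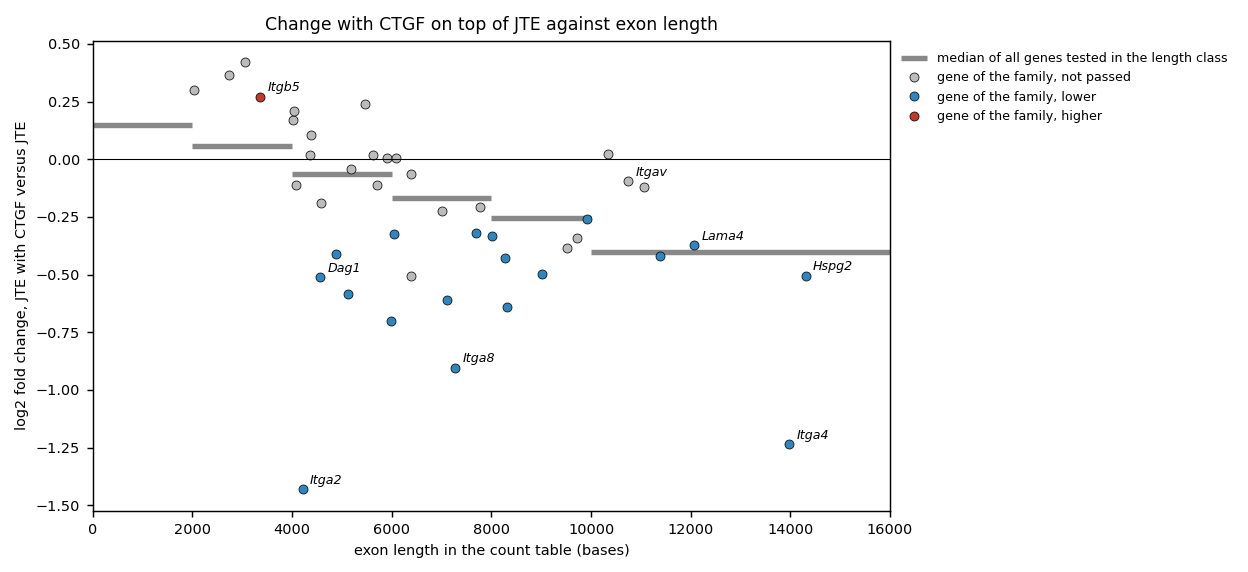
log2 fold change from JTE to JTE with CTGF (vertical) against exon length in bases (horizontal) for the genes of the family (points, blue lower, red higher, grey not passed), with the median of all genes tested in each length class (grey bars, the last class drawn to the edge). The medians of all genes went from 0.149 below 2000 bases to −0.403 above 10000 bases, Itga2, Itga4 and Itga8 lay far below their class, and Itgav lay above it.

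Cytoplasmic partners of integrins were read from lists of 30 focal adhesion genes, 8 hemidesmosome and keratin genes and 30 basement membrane collagens and other integrin ligands. In culture 18 focal adhesion genes rose and 4 fell, beside 28.5% and 29.3% of all genes, with Nedd9 (0.70), a docking protein, and the actin cross-linker Actn1 (0.67) among the rises and Lims2 (−1.57) and Parvb (−0.46) among the falls. With JTE 8 rose and 16 fell, beside 25.9% and 26.2% of all genes. Fermt1, the kindlin of epithelia that activates integrins, fell by 1.16 ± 0.10 (adjusted p = 4.74e-08) and Fermt3, the kindlin of blood cells, by 1.4 ± 0.17 (adjusted p = 2.6e-06). Lims2 (1.15) and Git1 (0.45) rose. In the libraries labelled S1pr2 null 3 rose, Tns3 (0.45) and Flna (0.30) most, and 4 fell, Ptk2b (−0.73) and Fermt1 (−0.33) most, beside 12.6% and 13.3% of all genes.

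Of the hemidesmosome list 7 genes were tested. With JTE 5 fell and none rose, beside 26.2% and 25.9% of all genes, with Krt14 at −2.05 ± 0.51 (adjusted p = 0.00287) and Krt8, which is also an epithelial marker of the list above, at −1.06 ± 0.10 (adjusted p = 1.26e-07). In the libraries labelled S1pr2 null Krt18 (−0.66) and Krt8 (−0.56) fell, whereas Col17a1, the transmembrane collagen of hemidesmosomes, rose by 0.66 ± 0.21 (adjusted p = 0.0302) and Plec, which links Itgb4 to keratin, by 0.25. Col17a1 fell with JTE with CTGF against control (−1.45), and Dst (−0.72) and Plec (−0.37) fell from JTE to JTE with CTGF.

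Of 28 tested ligand genes 9 rose and 8 fell in the libraries labelled S1pr2 null, beside 12.6% and 13.3% of all genes. The Fraser complex protein Frem1 (1.19 ± 0.12, adjusted p = 3.38e-06) and Smoc2 (0.75) rose most, and Tnxb (−0.75) and periostin (Postn, −0.57) fell most. With JTE 5 rose and 12 fell, beside 25.9% and 26.2% of all genes, with Smoc2 (0.82) and Fras1 (0.76) up and the integrin ligands osteopontin (Spp1, −1.39) and Postn (−1.22) down. From JTE to JTE with CTGF 2 rose (Spp1 0.44 and Fbln1 0.30) and 7 fell, Fras1 (−0.84) and Frem2 (−0.78) most, beside 13.6% and 16.8% of all genes. In culture 13 rose and 8 fell, beside 28.5% and 29.3% of all genes, with Tgfb2 (1.21) and Fbln2 (1.17) up and Fbln5 (−2.28) and Smoc2 (−1.93) down.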

How the data were processed

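The authors sequenced poly(A) RNA with a strand-specific kit, aligned reads to mm10 with GSNAP and counted uniquely aligned reads per Ensembl gene with featureCounts 1.4.6, and they deposited raw counts per gene. Whether counting used strand is not given in the sources used here. Of the 45 genes 24 overlap another annotated gene, 18 of them on the opposite strand (Itga4 with Cerkl, Nid2 with Rtraf and Itgae with Haspin, for example), so their counts are less certain.

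Counts of all 15 libraries were fitted in edgeR 4.0.16 (R 4.3.3) with TMM factors, the filterByExpr filter by group, 5 group coefficients and the quasi-likelihood F-test, adjusted by Benjamini-Hochberg over the 16245 genes that passed, and called at 0.05. SE is the log2 fold change divided by the square root of F. The test was tried on simulated counts. CPM used effective library sizes. GENCODE M21 symbols matched 97.9% of genes. Where nothing says that libraries came from separate litters, p-values measure the spread between these libraries.

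Counts cover all genes of the family, of which 1 is not reported here by itself or drawn. Values per library are given for genes that passed with non-overlapping groups and had the largest changes, up to 5 in each direction and comparison, with others as context, and of each partner list at most 2 in each direction. The genes, lists and tests were chosen with earlier results of these data known. Alternatives were DESeq2 1.42.0 (its size factors, its Wald test), upper quartile factors, no filter, only the libraries compared, a replicate block, leaving out each library, the study's criterion and, chosen after seeing the data, offsets for exon length.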

Additional observations from a re-analysis of the deposited data

Results flagged for a closer look

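In Tnc, Itga4, Itga3, Lamb1, Lamc1, Itga7 and Itgb3 the response to JTE and the response to the S1pr2 null genotype each passed the test with opposite signs, and the difference between the responses passed its own test (edgeR quasi-likelihood F-test). On the log2 scale, as JTE response minus genotype response, the differences were −2.14 for Tnc, −1.39 for Itga4, −0.34 for Itga3, 0.57 for Lamb1, 0.65 for Lamc1, 1.41 for Itga7 and 1.5 for Itgb3. The genotype calls of Itga3, Itga4, Itgb3, Lamb1 and Lamc1 were lost with single libraries left out, as given above. Those of Itga4 (0.29) and Itga3 (0.14) were also lost with length offsets. That of Itga3 was lost with the DESeq2 Wald test (0.17) and with no filter on low counts (0.17), and that of Lamb1 with the replicate block (−0.17). How many of all genes share the pattern of opposite signs was not counted. Fresh tissue with a germline allele and cultured buds with a drug also differ in age, culture and dissected part. These cannot be told apart in the differences.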

How the results depend on the processing

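The study's criterion gave fewer genes, 4 higher and 2 lower in S1pr2 null versus wt, 2 and 9 in JTE versus control, 3 and 12 in JTE with CTGF versus control, 0 and 0 in JTE with CTGF versus JTE, and 13 and 4 in culture. The 1 gene higher in JTE with CTGF versus JTE became 2 with no filter on low counts, 0 with only the libraries compared, 2 with the replicate block and 2 with length offsets, and 0 to 3 with single libraries left out (3 without JTE 3, 0 without JTE 1 or the first CTGF library). Over all genes 8.13% to 15.5% were higher in JTE with CTGF versus JTE under these settings. Length offsets gave 10 lower in that comparison, beside 10.3% of all genes. They gave 8 higher in JTE with CTGF versus control, beside 29.2% of all genes. They also turned the direction of Itgav (0.235), Lama4 (0.00264) and Lamb1 (0.0395) in JTE with CTGF versus JTE. The cause was not tested. With DESeq2 size factors 1 of 225 group means moved by over 1 SD. DESeq2 size factors, upper quartile factors and the DESeq2 Wald test kept every other count within 1.5 times.

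The labels link libraries of different groups only by a replicate number. Same-numbered libraries deviated together with correlations of −0.129 to 0.291, below 0.1 for at least 1 pair in every pair of groups. The highest were those of control and JTE, at 0.291 for number 3 and 0.183 for number 2. With 3 libraries a group, these correlations cannot tell whether libraries shared a litter or a day of culture. With the number as a replicate block 9 genes were higher and 11 lower in S1pr2 null versus wt, beside 12.1% and 12.9% of all genes. In JTE versus control 9 were higher and 17 lower, beside 25.4% and 25.9%. Pooled tissue, 3 libraries a group and few reads for Itgax, Itgae, Itgb7 and Lama3 limit what could be seen, and protein was not measured.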
